A study of Saccharomyces cerevisiae with 8 samples.

Results

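The cytochrome complexes and the ATP synthase are the stretch of the yeast respiratory chain from ubiquinol to ATP. Their genes were taken as the array's non-control spots whose systematic name is that of 1 of 35 nuclear genes, and all 35 were found among the 6225 genes on the array: 9 of the cytochrome bc1 complex, 2 of cytochrome c, 9 of cytochrome c oxidase and 15 of the ATP synthase with its inhibitor. Each had 1 probe, printed as 2 spots per array. Transcript levels were measured in the yeast Saccharomyces cerevisiae (strain CENPK.2-1C, widely used in the laboratory) on 8 Agilent arrays of 1 colour. The 4 groups of 2 arrays were cells carrying a TFIIB mutant (called M1) with 4 mM H2O2, control cells with 4 mM H2O2, the mutant without H2O2 and control cells without H2O2. All were grown in YPD, a rich glucose medium, and collected in exponential phase at an OD600 of 1.0. The labels name neither the base change of the mutant nor the way it was introduced, and the replicates are described as biological. The comparison followed most closely here is control cells with against without H2O2.

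In the inner membrane of mitochondria the bc1 complex passes electrons from ubiquinol to cytochrome c, a small soluble haem protein, and cytochrome c oxidase passes them on to oxygen. Both complexes move protons across the membrane, and the ATP synthase lets them flow back through a membrane sector that turns a rotor inside a catalytic head. A few core subunits are encoded in mitochondrial DNA and all other subunits in the nucleus. In yeast many of the nuclear genes are repressed by glucose and activated by haem and the Hap2/3/4/5 complex. Cytochrome c and subunit 5 of the oxidase each have a pair of genes: CYC1 and COX5A, used in air, and CYC7 and COX5B, known as the hypoxic forms.

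All 8 arrays lie on 1 slide read in 1 scan, where medium follows the row and strain follows the column, so place on the slide cannot be told apart from either. Signals are background-subtracted intensity units. The 75th percentile of an array was 9185 and 12898 units in control cells with H2O2, 15424 and 15403 units in control cells without, and between 9.87 and 14.5 units in the 4 samples labelled mutant. Probes for E1A, an RNA spiked into each sample, gave 2621 to 4693 units on all 8. SUA7, the gene of TFIIB, gave 13788 to 30808 units in control cells and was near background in all 4 samples labelled mutant. The probe does not see a base change. MATa marker genes read at least 5684 units on the control arrays, and MATalpha markers at most 650.2 units. For the tests each array's 75th percentile was subtracted on the log2 scale. Log2 changes carry their standard error (±) from limma's fit of the 4 groups, and adjusted p is Benjamini-Hochberg over the 6045 genes tested, with 0.05 as the threshold. The 2 arrays per group limit the precision of every value.

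With H2O2, 15 of the 35 genes fell in control cells, none rose, and 20 did not pass the test. Of all genes tested, 14% passed as lower and 13.1% as higher. The median log2 change of the 35 genes was -0.62, against 0.03 over all genes, and 34 of the 35 changes were below 0, against 48.3% of all genes. By complex, 8 of 9 genes of the bc1 complex fell, 1 of 2 of cytochrome c, 1 of 9 of the oxidase and 5 of 15 of the ATP synthase, and the median changes were -0.91, -1.98, -0.35 and -0.57. For 33 of the 35 genes both scaled values with H2O2 lay below both without, which was so for 41.3% of all genes tested, with 45.3% the other way round and 0 of the 35. On the spike-in scale the median over all genes moved to -0.52 and that of the 35 genes to -1.16. Both scalings subtract 1 constant per array, so the distance of the 35 genes from the median gene, -0.65, is the same on both by construction.

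These counts depend on how the spread is estimated. The arrays without H2O2 nearly coincided: their variance was 1.48 times that of duplicate spots within an array, against 22.4 times for the arrays with H2O2. Counted as 1 sample by averaging, they left 0 of 35 genes past limma's threshold, 12 with an unadjusted p under 0.05, and 1.42% of all genes called lower. Leaving out H2O2 replicate 1 left 5 calls (12.5% of all genes lower) and H2O2 replicate 2 left 1 (5.19%). Leaving out replicate 1 or 2 without H2O2 left 0 (1.08% and 2.89% of all genes). The pooled spread also holds the dim arrays labelled mutant, and a fit of the control arrays alone called 28 of the 35 genes lower beside 25.9% of all genes. That fit called 9 of 9 genes of the bc1 complex, 2 of 2 of cytochrome c, 5 of the 8 oxidase genes other than COX5B, and 12 of 15 of the ATP synthase, while COX5B missed its threshold. With quantile normalization 2 of the 35 and 1.22% of all genes passed as lower, the 2 being genes of the catalytic head of the ATP synthase, ATP1 and ATP2.

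**Figure D1:**
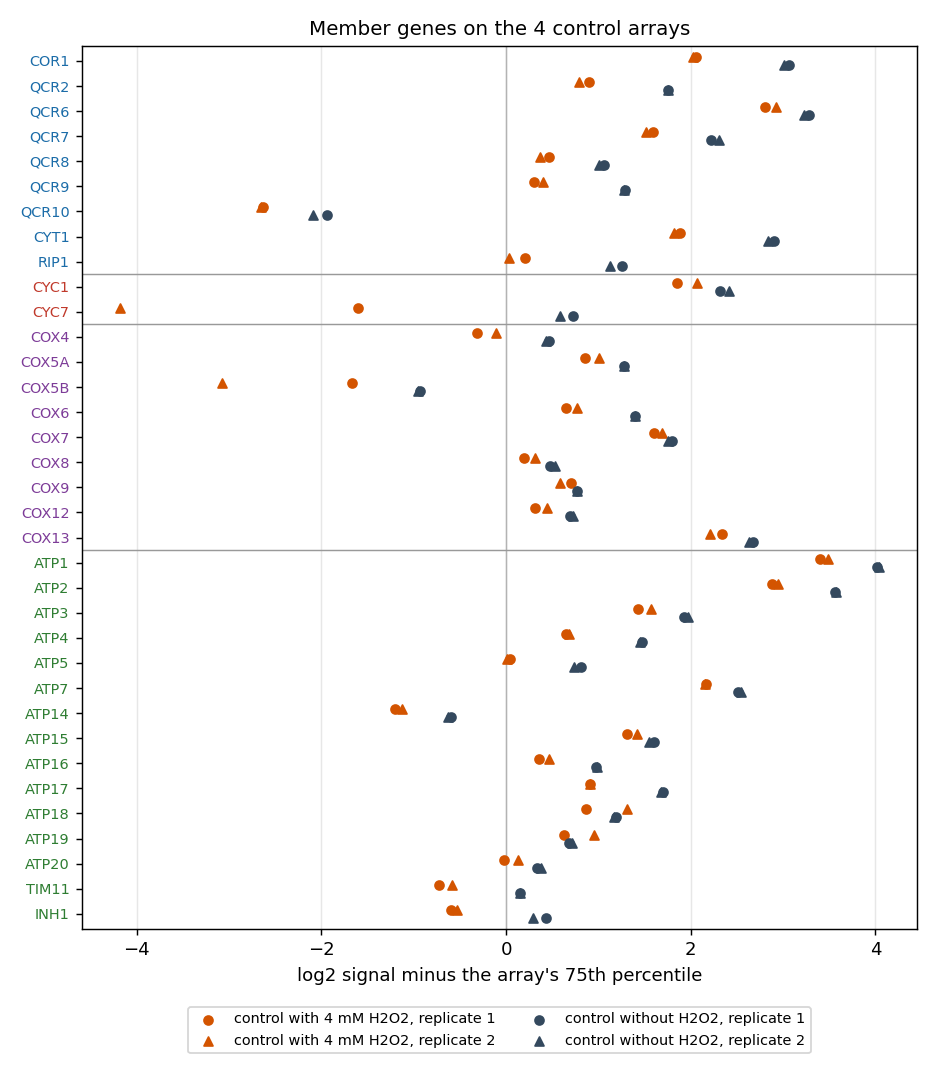
Scaled signal (log2 units minus the array's 75th percentile) of the 35 genes on the 4 control arrays, with H2O2 in orange and without in dark grey, circles for replicate 1 and triangles for replicate 2. Both orange points lie left of both grey points for 33 genes, all but ATP18 and ATP19, and CYC7 and COX5B show the widest gap between the arrays with H2O2.

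The bc1 complex carried 8 of the 15 calls. That count was 0 with quantile normalization, beside 1.22% of all genes lower. It was 6 on the spike-in scale (15.9% of all genes) or with the percentile taken over well-measured genes (11.6%). The catalytic subunits of the bc1 complex made in the nucleus are the Rieske iron-sulphur protein (RIP1) and cytochrome c1 (CYT1). RIP1 (YEL024W, chromosome V, 107260 to 107907, plus strand of release R64-1-1, as are all positions given here) read 10628 and 13201 units with H2O2, against 36791 and 33610 units without. After scaling, both values with H2O2 lay below both without, as for 41.3% of all genes tested. RIP1 fell by 1.07 ± 0.19 on the log2 scale (2.10-fold, adjusted p = 0.0091, limma). CYT1 (chromosome XV, 447439 to 448368, plus strand) read 33908 and 45387 units with H2O2, against 115138 and 110362 units without, a log2 change of -1.02 ± 0.21 (adjusted p = 0.0146). RIP1 was the single gene of the 35 that passed an adjusted p of 0.01 in limma, a threshold that 4.95% of all genes passed as lower.

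The core proteins COR1 and QCR2, which face the matrix, both fell. COR1 (chromosome II, 134143 to 135516, minus strand) read 38214 and 52523 units with H2O2, against 128880 and 124061 units without, and fell 1.99-fold (-0.99 ± 0.21, adjusted p = 0.0173). QCR2 read 17136 and 22316 units with H2O2, against 52080 and 51965 units without (-0.91 ± 0.21, adjusted p = 0.0213). After scaling, the arrays with H2O2 differed from each other by 0.03 for COR1 and 0.11 for QCR2, well inside the distance to the arrays without.

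Of the 5 small subunits, 4 fell. QCR9, which the authors' deposited tables show with an intron, read 11370 and 17006 units with H2O2, against 37784 and 37306 units without (-0.93 ± 0.23, adjusted p = 0.0253). QCR7, a small subunit on the matrix side, read 27622 and 36854 units with H2O2, against 71693 and 76177 units without (-0.71 ± 0.16, adjusted p = 0.0188). QCR10 fell by 0.63 ± 0.16 and QCR8 by 0.62 ± 0.16. QCR6, the acidic hinge subunit, read 64190 and 97693 units with H2O2, against 149744 and 143708 units without, and its change of -0.39 ± 0.26 did not pass (adjusted p = 0.317), although its scaled values do not overlap either.

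**Figure D2:**
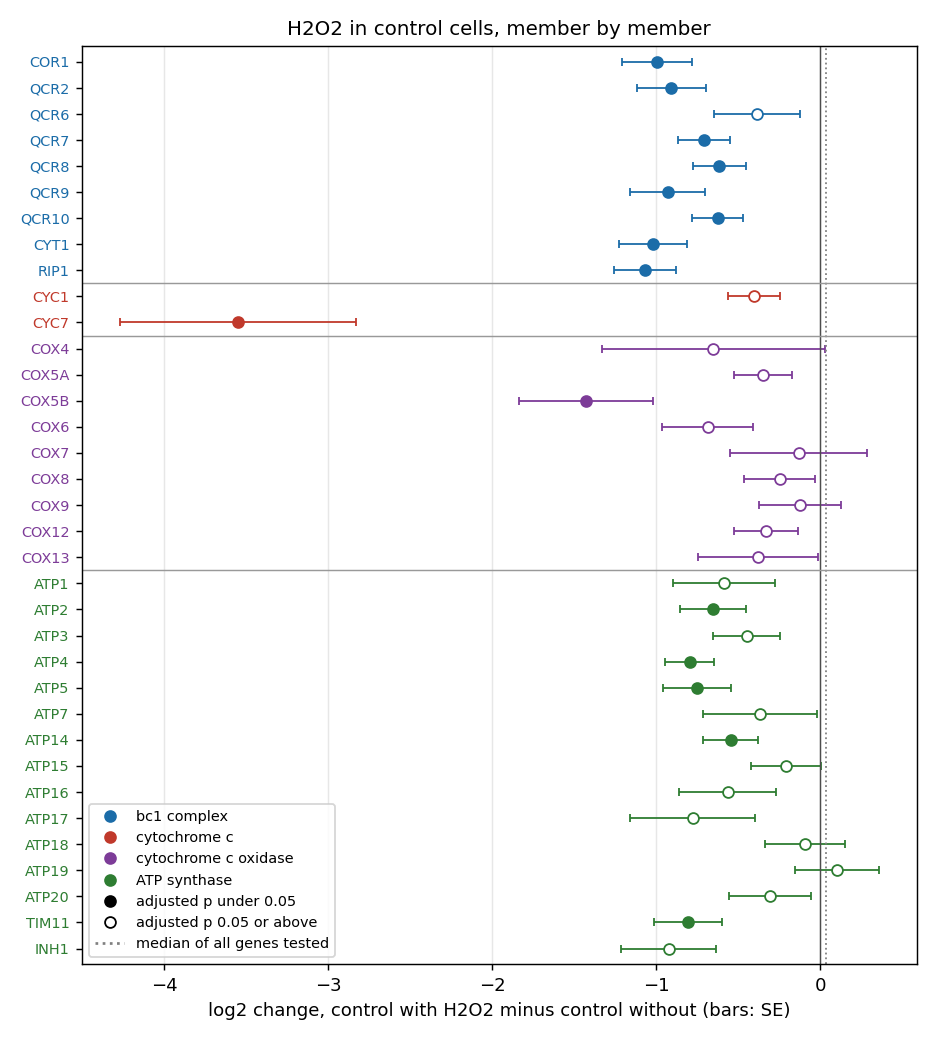
Log2 change of each gene in control cells, with H2O2 minus without, with its standard error from the fit of the 4 groups, coloured by complex and filled where the adjusted p was under 0.05. The filled points are 8 of 9 in the bc1 complex, CYC7, COX5B and 5 of 15 in the ATP synthase, and ATP19 is the single gene right of 0.

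Among the electron carriers and the oxidase, the 2 genes that passed were the hypoxic forms. CYC7, isoform 2 of cytochrome c (YEL039C, chromosome V, 79636 to 79977, minus strand), read 3028 and 711.9 units with H2O2, against 25570 and 23171 units without. Both arrays with H2O2 were far below those without, and they differed from each other by 2.58 on the scaled log2 scale. CYC7 fell by 3.55 ± 0.72 (11.7-fold, adjusted p = 0.0141, limma). Without H2O2 replicate 2 the change was -2.26 (adjusted p = 0.0159) and without replicate 1 it was -4.84 (adjusted p = 0.000593). Leaving out replicate 1 or 2 of the arrays without H2O2 gave an adjusted p of 0.0870 or 0.0678.

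CYC1, isoform 1 of cytochrome c (YJR048W, chromosome X, 526335 to 526664, plus strand), read 33038 and 54116 units with H2O2, against 76941 and 81855 units without. Its scaled values do not overlap, but its change of -0.41 ± 0.16 did not pass (adjusted p = 0.102). The log2 distance of CYC1 above CYC7, taken within each array so that no scaling enters, was wider by 1.74 and 4.54 with H2O2 than the mean without, where the 2 arrays lay at -0.12 and 0.12 of that mean. The mean widening was 3.14, an 8.83-fold shift in the ratio of the 2 signals (exact permutation test, two-sided p = 0.333, n = 2 against 2, the smallest p this design can give).

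COX5B (YIL111W, chromosome IX, 155222 to 155765, plus strand, with an intron) encodes form b of oxidase subunit 5. It read 2883 and 1530 units with H2O2, against 8061 and 7959 units without, and fell by 1.43 ± 0.41 (2.69-fold, adjusted p = 0.0402). COX5A (YNL052W, chromosome XIV, 531725 to 532186, plus strand), form a, read 16609 and 25920 units with H2O2, against 37530 and 37453 units without (-0.35 ± 0.18, adjusted p = 0.185). The distance of COX5A above COX5B was wider by 0.30 and 1.86 with H2O2 than the mean without, 1.08 on average (exact permutation test, two-sided p = 0.333, n = 2 against 2, the smallest possible). It rests largely on H2O2 replicate 2: without that array COX5B changed by -0.73 and no longer passed (adjusted p = 0.104), and without H2O2 replicate 1 it changed by -2.13 (adjusted p = 0.00242). Leaving out replicate 1 or 2 of the arrays without H2O2 gave COX5B an adjusted p of 0.172 or 0.156.

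**Figure D3:**
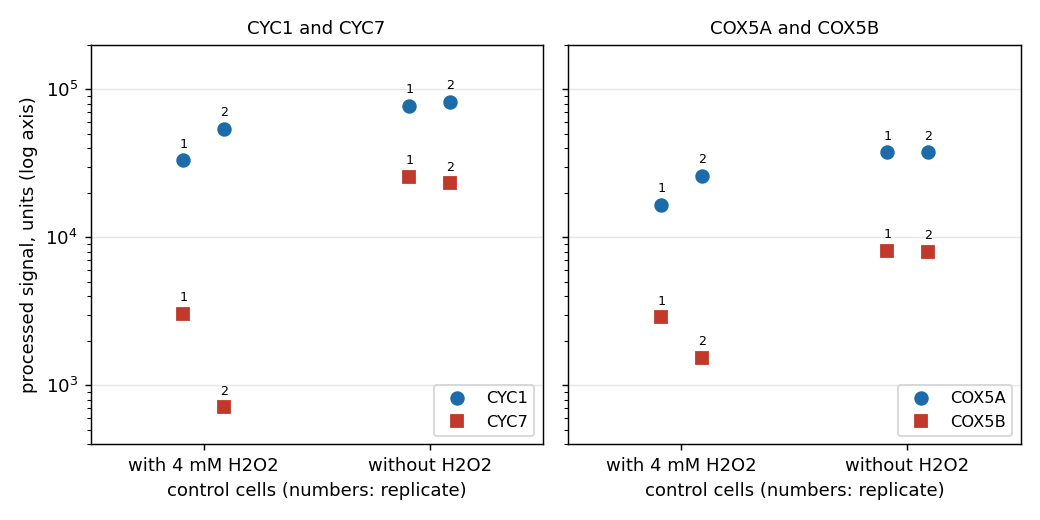
Processed signal in units, on a log axis, of the 2 forms of cytochrome c (left) and of oxidase subunit 5 (right) on the control arrays, with H2O2 at the left of each panel. Within the group with H2O2, replicate 2 reads higher than replicate 1 for CYC1 and COX5A and lower for CYC7 and COX5B, while the arrays without H2O2 nearly coincide.

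The replicates with H2O2 split the 35 genes in 1 way in units and in another after scaling. In units, 33 genes read higher on H2O2 replicate 2 than on replicate 1, as the 75th percentile of the array did, and the 2 exceptions were CYC7 and COX5B. After scaling, 21 of the 35 genes were higher on replicate 2, with 2 of the 9 bc1 genes among them. Leaving out the 2 hypoxic genes, the median change of the other 33 was -0.59.

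The 8 oxidase genes other than COX5B had changes of -0.69 to -0.12 with a median of -0.34, and none passed, although both scaled values with H2O2 lay below both without for all 8. COX6, subunit 6, came nearest, with 14384 and 21912 units with H2O2, against 40511 and 40493 units without (-0.69 ± 0.28, adjusted p = 0.112). COX4, subunit 4, a zinc-binding protein, had a change of similar size but a wider error (-0.65 ± 0.68, adjusted p = 0.523). Its arrays labelled mutant without H2O2 read 37.6 and 6.74 units, and those arrays enter the pooled error. COX7 and COX9 changed least, by -0.13 ± 0.42 and -0.12 ± 0.25. COX8, COX12 and COX13 lay between -0.38 and -0.25.

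In the ATP synthase 5 of 15 genes fell. The count was 2 when arrays were scaled to their median, 3 with no filter on dim genes or with the percentile taken over well-measured genes, and 0 or 1 with any control array left out. Of all genes, 13.1% were lower with the array median, 13.5% with no filter and 11.6% with the percentile over well-measured genes. In the peripheral stalk, which holds the head still against the rotor, 3 of 4 genes fell. ATP4, subunit b of the stalk (chromosome XVI, 408010 to 408744, minus strand), read 14382 and 20723 units with H2O2, against 42945 and 42008 units without (-0.80 ± 0.15, adjusted p = 0.0106). ATP5, the OSCP subunit that joins stalk and head (chromosome IV, 1058176 to 1058814, minus strand), read 9427 and 12989 units with H2O2, against 27098 and 25702 units without (-0.75 ± 0.21, adjusted p = 0.0352). ATP14, subunit h, fell by 0.55 ± 0.17 (adjusted p = 0.0477), and ATP7, subunit d, had a change of -0.37 ± 0.35. For ATP4, ATP5 and ATP14 both scaled values with H2O2 lay below both without, as for 41.3% of all genes tested.

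In the catalytic head, 1 of 5 genes passed. ATP2, the beta subunit that carries the catalytic sites (YJR121W, chromosome X, 647607 to 649142, plus strand), read 67837 and 99172 units with H2O2, against 182189 and 183594 units without (-0.65 ± 0.20, adjusted p = 0.0484). ATP1, the alpha subunit, read 96762 and 144339 units with H2O2, against 250403 and 252412 units without, and its change of -0.59 ± 0.31 did not pass (adjusted p = 0.207). ATP16, ATP3 and ATP15, the subunits of the central rotor, had changes of -0.57, -0.45 and -0.21 that did not pass.

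Of the 5 small membrane subunits 1 fell. TIM11, subunit e, which takes part in pairing 2 synthases into a dimer (chromosome IV, 1112003 to 1112293, minus strand), read 5560 and 8582 units with H2O2, against 17128 and 17108 units without (-0.81 ± 0.21, adjusted p = 0.0287). ATP20, subunit g and its partner in the dimer, changed by -0.31 ± 0.25 and did not pass. ATP17, subunit f, had a larger change with a wide error (-0.78 ± 0.38, adjusted p = 0.178). ATP18 and ATP19 were the 2 genes of the 35 whose scaled values overlap between the groups. ATP19 read 14218 and 25043 units with H2O2, against 24695 and 25195 units without, a change of 0.10 ± 0.26 that turned to -0.45 on the spike-in scale. INH1, which inhibits the synthase when it runs in reverse, read 6081 and 8910 units with H2O2, against 20809 and 18811 units without, and just missed the threshold (-0.92 ± 0.29, adjusted p = 0.0536).

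Other genes of respiration were read from lists, whose counts stand beside 14% of all genes tested lower and 13.1% higher. Among the succinate and NADH dehydrogenases, which feed electrons to ubiquinone, 6 of 11 fell and none rose, with a median change of -0.89. NDE2, an external NADH dehydrogenase, changed by -2.93, SDH2, the iron-sulphur subunit of succinate dehydrogenase, by -1.54 and SDH4, a membrane anchor, by -1.29. In the list of ATP synthase assembly and regulators 4 of 14 (28.6%) fell, with a median of -0.29. They included STF1, which acts with INH1 and changed by -1.69 ± 0.30 (adjusted p = 0.00909), with 6732 and 4850 units with H2O2, against 26895 and 25471 units without. NCA2 and ATP22 had changes of -0.89 and -0.83.

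The assembly factors of the oxidase had 5 of 34 genes lower (14.7%, close to the 14% of all genes), with a median of -0.29, among them PET494 (an activator of COX3 translation, 1375 and 1574 units with H2O2, against 4322 and 4032 units without), RCF1 (-0.63 ± 0.15) and COX15 (a haem A synthesis enzyme, -0.89 ± 0.22). In the list for bc1 and cytochrome c assembly 1 of 13 (7.69%) fell (CBP4, -0.69 ± 0.16) and 1 rose. The one that rose was CBP1, needed for the stability of the COB transcript, with 1579 and 4335 units with H2O2, against 1438 and 1588 units without, so that 1 of its 2 arrays with H2O2 lay within the range of those without in units. CYT2, the haem lyase of cytochrome c1, changed by -0.39 ± 0.19 and did not pass (adjusted p = 0.182). None of the 7 mitochondrially encoded subunits on the array passed in either direction, with 0 of 7 at an adjusted p under 0.05 in limma, and their median was 0.32. ATP6, COX2 and COX3 had changes of 0.53, 0.54 and 0.30, and OLI1 and COB of 0.38 and 0.32. COX1 and ATP8 were at -0.18 and -0.0027. The standard errors of these genes ran from 0.18 to 0.45. Subunits of the same complexes encoded in mitochondria and in the nucleus had medians of opposite sign on this scale, a difference that was not tested. On the spike-in scale both medians were below 0, at -0.22 and -1.16.

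Of the 9 regulators 2 (22.2%) fell and none rose, where of all genes tested 14% were lower and 13.1% higher. HAP4, the activating subunit of the Hap complex, read 23864 and 12753 units with H2O2, against 77740 and 77320 units without (-1.65 ± 0.46, adjusted p = 0.0364). Its lower array with H2O2 was replicate 2, which was also so for CYC7, COX5B, STF1, NDE2 and PIC2 and is not particular to these genes. HAP5, a DNA-binding subunit of the same complex, fell by 0.91 ± 0.16 (adjusted p = 0.00907). MOT3, a repressor of hypoxic genes, changed by 0.67 ± 0.24 and did not pass. Of 9 hypoxic genes tested 2 (22.2%) fell, CYC7 and COX5B themselves, and 1 rose. It was AAC3, the hypoxic ADP/ATP carrier, with 869.8 and 1141 units with H2O2, against 605.2 and 626.3 units without (1.20 ± 0.16, adjusted p = 0.00480). Among the 5 ADP/ATP and phosphate carriers AAC3 was the one that rose, PIC2, a minor phosphate carrier, changed by -2.07 ± 0.30 (adjusted p = 0.00553), and PET9, the main ADP/ATP carrier, by -0.70 ± 0.48, which did not pass. Haem synthesis had 0 of 8 genes called in limma, beside 14% of all genes lower and 13.1% higher. HEM2, HEM15 and HEM1 were at -0.40, -0.53 and 0.31.

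**Figure D4:**
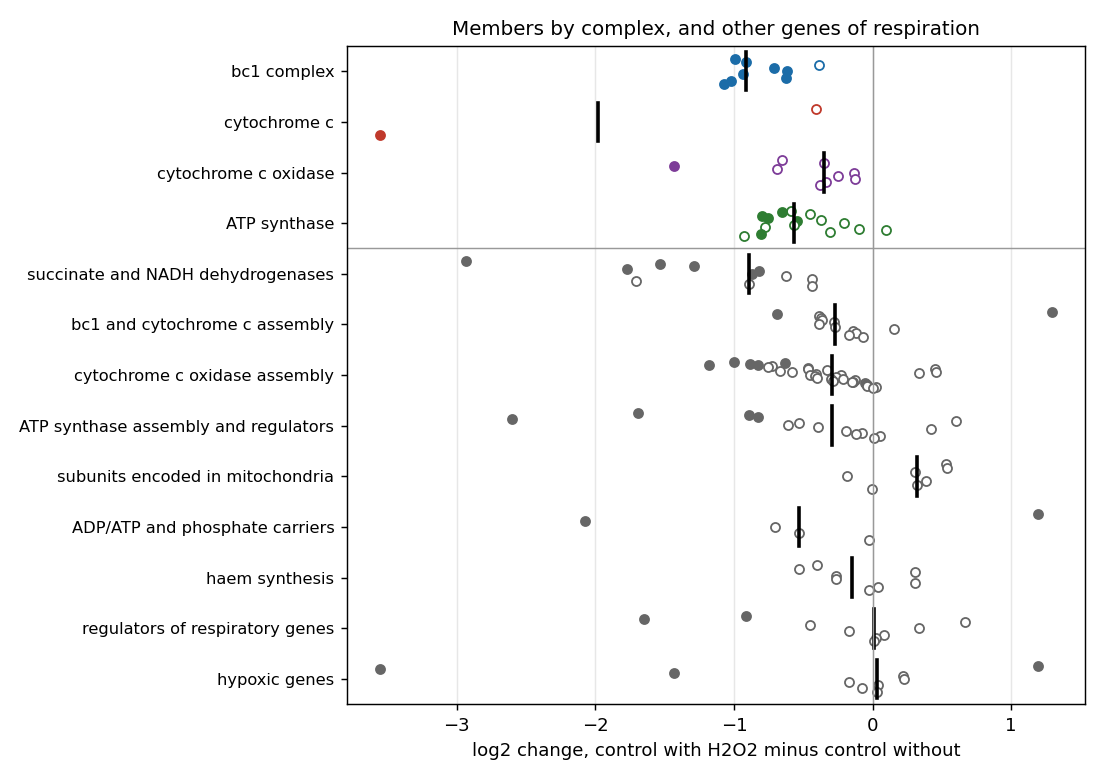
Log2 change in control cells, with H2O2 minus without, of the 35 genes by complex (coloured) and of the other lists of respiration (grey), 1 point per gene, filled where the adjusted p was under 0.05, with a black bar at each median. The medians run from -1.98 for cytochrome c and -0.91 for the bc1 complex to 0.32 for the subunits encoded in mitochondria.

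On the arrays labelled mutant nearly all of these genes were close to background. The 35 genes had a median of 5.87 and 10.9 units on the mutant arrays with H2O2, against 14384 and 21912 units on the control arrays with H2O2, and 7.65 and 6.57 units on the mutant arrays without H2O2, against 37530 and 37306 units on the control arrays without H2O2. On the 4 arrays labelled mutant, 29 of the 35 read under 20 units on every array, and 15 were not well above background on any. Well above background on all 4 were 7 genes, beside 1107 of the 6225 genes on the array: RIP1, CYC7, COX8, COX9, ATP2, ATP19 and TIM11. Low signal was a property of these arrays as a whole. Of all probes 21.8% to 41.2% were well above background on each, and the 75th percentile was 9.87 to 14.5 units. Fewer cells, less RNA per cell and samples that failed before hybridisation cannot be told apart here, so no value below is read as an effect of the mutation.

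ATP2 stood apart. It read 70187 and 80336 units on the mutant arrays with H2O2, against 67837 and 99172 units on the control arrays with H2O2, and 57163 and 67638 units on the mutant arrays without H2O2, against 182189 and 183594 units on the control arrays without H2O2. With H2O2 both mutant values therefore lie within the range of the 2 control arrays. On the spike-in scale ATP2 was 3.60-fold lower in the mutant than in the control without H2O2 (log2 -1.85 ± 0.41, adjusted p = 0.000170). With H2O2 its change on that scale was -0.45 ± 0.41 and did not pass (adjusted p = 0.288). A signal of 1000 units or more on each of the 4 arrays labelled mutant was found for 42 of 6225 genes (0.675%), of which ATP2 was the 1 gene of these complexes. From the other lists 5 genes were: PET9, MIR1 (the main phosphate carrier), SDH2, PET122 and TUP1. ATP1, the partner of ATP2 in the head, read 3.63 and 9.57 units with H2O2 and 7.65 and 4.62 units without on the arrays labelled mutant.

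COX9, subunit 7a of the oxidase, read 194.0 and 206.9 units on the mutant arrays with H2O2, against 14931 and 19361 units on the control arrays with H2O2. Without H2O2 it read 136.2 and 189.2 units in the mutant, against 26258 and 26219 units in the control. TIM11 read 102.4 and 101.5 units in the mutant with H2O2, against 5560 and 8582 units in the control with H2O2, and 93.8 and 82.9 units in the mutant without H2O2, against 17128 and 17108 units in the control without H2O2. Both are lower in the mutant in units and on the spike-in scale, by 106-fold and 84.6-fold with H2O2 and by 200.2-fold and 237.7-fold without.

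The direction of these comparisons turns with the scale, since the 75th percentile of the arrays labelled mutant lies near background. With H2O2 18 of the 35 genes, and without H2O2 17, were well above background on neither mutant array and could enter the test through the control arrays alone, so calls over all 35 are not read. Of the 8 genes well above background on all 4 arrays compared with H2O2, 5 were called higher in the mutant relative to the 75th percentile (ATP2, COX9, TIM11, RIP1 and CYC7) and 1 lower (ATP3), beside 76% and 14% of the 1320 genes tested under the same condition. Without H2O2, 3 of 8 were called higher (ATP2, COX9 and TIM11) and none lower, beside 72.9% and 14.1% of 1429 genes. On the spike-in scale 7 of the 8 genes with H2O2 and 8 of 8 without were called lower. Beside them stand 99.4% and 99.6% of all 6045 genes tested, a wider set than the 1320 and 1429 genes above. Other than ATP2, the 7 genes measured with H2O2 changed by -11.64 to -6.40 on that scale, where the median of all genes was -9.42, and the 7 without H2O2 by -11.41 to -7.65, where it was -10.19.

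Where neither array of a mutant group had a gene well above background, the fold is given as a bound. It uses the lowest signal well above background or, where higher, the gene's own signal. The bound is approximate, since a probe not flagged well above background can read above a flagged one. On mutant replicate 2 without H2O2 BAR1 (a MATa marker) was not flagged at 12.8 units, while COX8 was flagged at 9.72 units. Relative to the 75th percentile the bc1 genes CYT1 and QCR6 were at least 4.72-fold and 9.53-fold lower with H2O2, and at least 10.1-fold and 13.1-fold lower without. COR1 was at least 11.3-fold lower without H2O2. In the oxidase COX13 was at least 6.34-fold lower with H2O2 and at least 8.67-fold lower without, and COX7 at least 4.10-fold and 4.71-fold. ATP1 was at least 14.2-fold lower with H2O2 and at least 21.7-fold lower without. On the spike-in scale the bounds ran from 238.1-fold to 16126-fold over 18 genes with H2O2 and from 617.5-fold to 39363-fold over 17 genes without. CYC1 was well above background on 1 mutant array of each group and read 8.10 and 12.6 units with H2O2 and 9.72 and 9.38 units without.

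**Figure D5:**
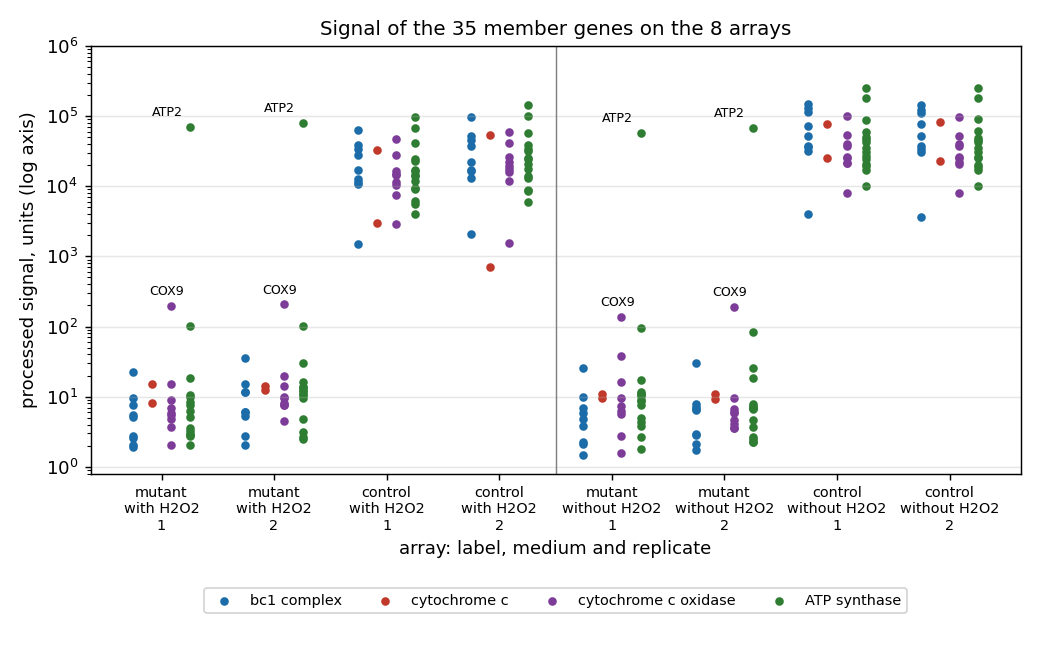
Processed signal in units, on a log axis, of the 35 genes on the 8 arrays, coloured by complex, with the arrays labelled mutant left of the control arrays of the same medium. The medians are 5.87 to 10.9 units on the arrays labelled mutant and 14384 to 37530 units on the control arrays. ATP2 lies at 57163 to 80336 units in the mutant.

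In the authors' deposited tables, made on their own normalized scale, ATP2 is up 80.8-fold in the mutant with H2O2 and 26.6-fold without, with corrected p-values of 0.00659 and 0.0108. CYT1 is down 120.7-fold with H2O2 and 303.4-fold without in the authors' deposited tables, on a scale where no bound was set for dim probes.

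Within the arrays labelled mutant, none of the 35 genes passed the threshold for H2O2 in limma and 2 had an unadjusted p under 0.05. Of all genes 0.0331% were called higher and 0% lower. Most of the 35 read near background on these arrays, so this count cannot show that H2O2 had no effect. With only genes well above background on all 4 arrays tested, 0 of 7 passed, beside 0 of 1107 genes. Among the 7 genes well above background on all 4 of these arrays, changes ran from -0.17 ± 0.19 for RIP1 to 0.23 ± 0.72 for CYC7. The difference between the H2O2 effect in the mutant and that in the control passed for 2 of the 35 genes, QCR7 and QCR8, beside 6% of all genes in the positive and 5.57% in the negative direction. QCR8 was not well above background on any array labelled mutant, and QCR7 on 1 of 2 in each medium, so the mutant side of that difference rests on readings near background. For CYC7, measured on all 8 arrays, the difference was 3.78 ± 1.02 and did not pass (adjusted p = 0.0570).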

How the data were processed

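Per the file headers, Feature Extraction 10.7.1.1 made the scanner files, which hold for each spot a processed intensity, background already subtracted, and a well-above-background call. The authors' deposited tables hold p-values, fold changes as a linear ratio with a direction, and normalized log2 values for mutant against control. Their 8 columns of raw values per array were not used. Positions came from the tables' descriptions (release R64-1-1), and symbols from RefSeq for 5720 of 6225 genes.

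Control spots (536 per array) and outlier spots were left out, none was saturated, log2 values of a probe's 2 spots were averaged, and each array was scaled to its 75th percentile. A gene was tested if both arrays of some group had its probe well above background (6045 genes). The 4 groups entered a single limma 3.58.1 model (R 4.3.3; 4 residual degrees of freedom), two-sided, with Benjamini-Hochberg adjustment per comparison. The fit was tested on simulated data. Isoform distances were tested by exact permutation. For a bound, the mean of the brighter group was set against the dim probe's signal or, where higher, the weakest signal flagged above background on that array, all as means of scaled log2 values. The spike-in scale uses 7 of 10 E1A probes.

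Genes, lists and alternatives were chosen with earlier results of these data known. Any of the 35 genes could be named. The rule took from each complex the 3 with the smallest p for H2O2 in control cells, both isoform pairs, genes above background on an array labelled mutant, the 2 brightest of each complex, and from each other list the 3 with the smallest p. MIR1, PET122 and TUP1 were named after their values were seen. Other scalings, background corrections, filters and thresholds, a replicate block, a variance trend, averaged arrays and each array left out were tried. Sequences and promoter motifs were not analysed here.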

Additional observations from a re-analysis of the deposited data

Results flagged for a closer look

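For 2 genes of the bc1 complex the interaction term of limma's fit passed the threshold. QCR8 was not well above background on any array labelled mutant, and QCR7 on 1 of 2 in each medium. The term therefore cannot show an H2O2 effect in the mutant. The difference (mutant effect minus control effect, log2) was 0.96 ± 0.22 for QCR7 (adjusted p = 0.0385) and 1.01 ± 0.23 for QCR8 (adjusted p = 0.0375). QCR7 read 9.52 and 15.4 units in the mutant with H2O2, against 9.86 and 7.87 units in the mutant without, and 27622 and 36854 units in the control with H2O2, against 71693 and 76177 units in the control without. QCR8 read 7.67 and 11.5 units in the mutant with H2O2, against 5.94 and 6.49 units in the mutant without, and 12673 and 16644 units in the control with H2O2, against 32082 and 30966 units in the control without. Neither passed with the replicate number as a block, with quantile normalization with or without normexp, with the control arrays without H2O2 averaged, with any control array or either mutant array with H2O2 left out, with the percentile over well-measured genes, or on the spike-in scale. The share of these differences that comes from mutant readings near background was not tested.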

How the results depend on the processing

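For H2O2 in control cells the number of the 35 genes called lower (15) became 2 with quantile normalization, 30 with normexp and the 75th percentile (beside 32.5% of all genes lower), 2 with normexp and quantiles (beside 0.744%), 28 with only the control groups in the fit, 1 at an adjusted p under 0.01, 0 with the arrays without H2O2 averaged, and 0 to 5 with an array left out. Other settings gave 10 to 16, beside 11.6% to 17.9% of all genes, and with the replicate number as a block 11, beside 12.5%. None of the 35 was called higher under any of these settings. The distance of the median of the 35 from that of all genes became -0.55 with quantile normalization and -0.42 with normexp and quantiles. With an array left out ATP18 ran from -0.32 to 0.13 and ATP19 from -0.064 to 0.26, and ATP19 was -0.45 on the spike-in scale and -0.0075 with normexp and quantiles. The widening between CYC1 and CYC7 ran from 1.74 to 4.54 and that between COX5A and COX5B from 0.30 to 1.86 over all settings, both ends with an array left out.

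The mutant counts over all 35 genes include genes measured in the control alone. Mutant against control without H2O2, lower calls (23, beside 28.8% of all genes) became 35 on the spike-in scale (99.6%). They became 0 of 8 genes tested when both groups had to be well above background (14.1%). Higher calls (3, beside 50.5%) became 0 on the spike-in scale (0.0496%). They became 5 with quantile normalization (35.1%), normexp and the 75th percentile (70.2%), normexp and quantiles (32.9%) or the authors' normalized values (32.5%). With H2O2, lower calls (21, beside 28.3% of all genes) became 34 on the spike-in scale (99.4%) and 1 of 8 tested under the stricter filter (14%). Higher calls (7, beside 51.7%) became 0 on the spike-in scale (0.0662%). They became 4 with the array median (39.6%) or the percentile over well-measured genes (40.4%). On the spike-in scale ATP2, COX9 and TIM11 turned to -0.45, -6.73 and -6.40 with H2O2 and -1.85, -7.65 and -7.89 without. For H2O2 in the mutant 1 gene was lower with normexp and quantiles, and 0 to 1 were lower or higher with an array left out. The interaction called 2 genes higher, QCR7 and QCR8 (beside 6% of all genes). It called 0 with quantile normalization (0.116%), normexp and quantiles (0.546%), the replicate number as a block (4.58%) or an adjusted p under 0.01 (0%). On the spike-in scale it called 2 (7.63%) and with the percentile over well-measured genes 1 (3.42%), all genes other than QCR7 and QCR8. It called 1 under the stricter filter (9.01%), 8 at an adjusted p under 0.1 (11.6%) and 28 with normexp and the 75th percentile (24.6%). The stricter filter tests fewer genes. The cause of the other shifts was not tested.

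Replicate numbers are shared by the groups, but no label says that they pair samples, and deviations of same-numbered arrays correlated at -0.07 to 0.21 across genes. With the block 2 of 15 ATP synthase genes fell (5 without it) and 7 of 9 bc1 genes (8 without it). Of all genes, 12.5% were lower with the block and 14% without it. For H2O2 in the mutant, 0 of the 35 genes had an unadjusted p under 0.05 with the block (2 without it). Readings near background limit every value on the arrays labelled mutant.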
